A study of Homo sapiens with 6 samples.

Results

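The proteasome genes described here were the 50 protein-coding genes of the Gencode annotation whose symbols start with PSMA, PSMB, PSMC, PSMD, PSME, PSMF or PSMG followed by a digit, out of 20033 protein-coding genes. Their peaks were all poly(A) 3′-seq peaks whose summit lay in the gene body or up to 4 kb past its 3′ end, 387 of the 200023 peaks in the list. A −log10 q of at least 5 was met by 313 of them, and these are described below unless the text says otherwise. The other 74 had 3 to 19 reads at the summit, and 59 of them lay in introns.

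The libraries came from IMR-32, a human neuroblastoma cell line that carries an amplified MYCN gene. There were 2 libraries of cells given the solvent DMSO, 2 of cells given 400 nM THZ531 for 2 h and 2 of cells given 400 nM THZ531 for 6 h, each pair being biological duplicates of the same line. THZ531 is a covalent inhibitor of CDK12 and CDK13, kinases that act on elongating RNA polymerase II. The deposited peaks were called once on the merged reads, so the list holds 1 value per peak, no strand and no value for a library, and neither DMSO and THZ531 nor duplicates could be compared.

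The proteasome is the large protease that degrades proteins tagged with ubiquitin. Its 20S core is a barrel of stacked alpha and beta rings, in which the alpha subunits form the gate and some beta subunits carry the active sites. The 19S cap has a base with a ring of ATPases that unfold and thread the substrate and a lid that removes ubiquitin. Other members of the gene family help to assemble these parts, open the gate in place of the 19S cap, or restrain the core. The 3′ end of an mRNA is made by cleavage and addition of a poly(A) tail, directed by a hexamer such as AATAAA a short way before the cleavage site, and a gene can use more than 1 such site, including sites in introns.

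For each peak the number of reads over its summit was recovered from the deposited fold and −log10 p-value. The unit is reads of all 6 libraries together. It ran from 3 to 200 over the list, with a median of 13 at −log10 q of at least 5. The highest value, 200, is the number of start positions on both strands within the 100 bp read extension, the bound that holds when 1 read is kept per position and strand. Heights may therefore count distinct start positions rather than all reads and understate sharp sites, so a taller peak is not shown to be a more used site, and a height is not an expression level. As a check of the cell line, 11 of 11 marker genes of noradrenergic neuroblastoma had a peak at a transcript end, with 19 to 123 reads and a median of 66. None of 5 white blood cell or 3 endothelial genes had one, 1 of 3 epithelial genes had one of 7 reads, and 3 of 5 fibroblast genes had one of 7 to 15 reads.

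Most proteasome genes had a peak at an annotated transcript end, defined as 200 bp before to 600 bp after the end of any annotated transcript. This was so for 45 of 50 genes (90%, 95% Wilson interval 78.6 to 95.7), whereas 64.1% of all protein-coding genes had such a peak. The 5 genes without one were PSMA8, PSMB3, PSMB8, PSMB9 and PSMB11. PSMB8 and PSMB9 encode active-site subunits of the immunoproteasome, which interferon induces, PSMB11 encodes the beta subunit of the thymus and PSMA8 the alpha subunit of the testis. PSMB9 and PSMB11 had no peak of any kind, also below the −log10 q cutoff. PSMB8 had a single peak of 8 reads that lay 1354 bp past its last annotated end. PSMB10, the remaining immunoproteasome subunit, had a transcript-end peak of 22 reads at chr16:67934508-67934615, where the annotation also holds another, unnamed gene.

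The transcript-end peaks of the proteasome genes were taller in the median than those of all protein-coding genes. Among the 45 genes with one, the tallest such peak had a median of 35 reads (95% interval of the median 29 to 41, quartiles 25 and 43), against 25 reads (quartiles 17 and 36) over the 12832 protein-coding genes with one. The median of all these genes was exceeded by 33 of 45 proteasome genes (73.3%) and by 48.2% of all genes. Above the upper quartile of all genes lay 20 proteasome genes (44.4%) and 23.7% of all genes, and below the lower quartile 3 proteasome genes and 23.3% of all genes. The 3 were PSMB2, PSMC2 and PSMD5, each of which had a taller peak in an exon further upstream. Height and gene length were nearly unrelated across the 45 genes (Spearman's rho −0.10, genes of the same pooled list, some of which share a peak with a neighbour).

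**Figure D1:**
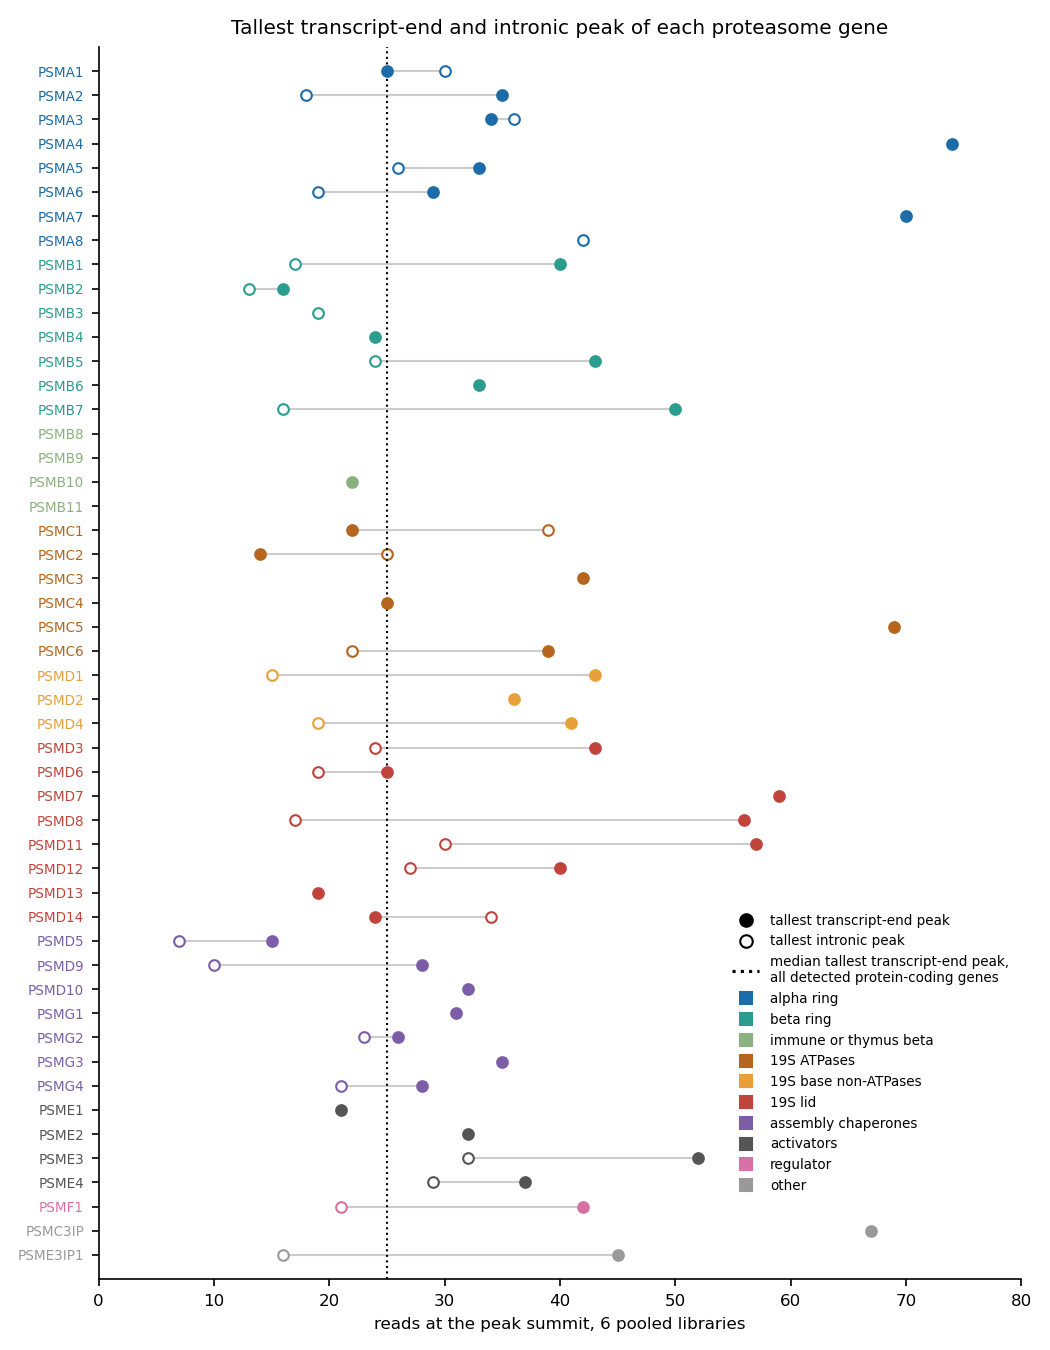
Reads at the summit of the tallest transcript-end peak (filled) and of the tallest intronic peak (open) of each of the 50 proteasome genes, grouped and coloured by role, with −log10 q of at least 5 and 6 libraries pooled. The filled points run from 14 to 74 reads, 33 of them lie to the right of the dotted median of 25 reads over all protein-coding genes, and an open point lies to the right of the filled one in 5 genes.

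The alpha ring genes had tallest transcript-end peaks of 25 to 74 reads, with a median of 34. PSMA4 had the tallest of all 50 genes, 74 reads at chr15:78548734-78549249, and PSMA7 had 70 reads. PSMA2 had 35 reads, PSMA3 34, PSMA5 33, PSMA6 29 and PSMA1 25. The PSMA3 peak ended 509 bp past the nearest annotated end, where ARMH4 and PSMA3-AS1 also lie, so its gene of origin cannot be told apart. The PSMA4 peak did not lie at the end of its canonical transcript but 3168 bp before it, in the 3′ UTR, 45 bp past another annotated end. The PSMA5 peak likewise lay 2798 bp before the canonical end. The sites of PSMA4 and PSMA1 are shown as the tallest and lowest of the ring, 5′ to 3′ on the gene's strand with the hexamer in capitals (AATAAA where the window holds several).
PSMA4 transcript end (chr15:78549195-78549224): aaggAATAAAttctctgtagcagtaattgt
PSMA1 transcript end (chr11:14504875-14504904): gtgaAATAAAattgtttcaccgcctggtat

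PSMA8, the alpha subunit of the testis, had no peak at its only annotated end but 3 peaks in intron 4 of its 59.5 kb gene, with 42, 31 and 21 reads. The tallest, at chr18:26167850-26168187, was also the tallest intronic peak of all 50 genes. The canonical AATAAA was not in the 100 bp before its 3′ edge, the edge nearest the gene's 3′ end. Of the 12 hexamers searched, this window held AATACA, which began 87 bases before that edge, and CATAAA, which overlaps it in the printed site. It is shown because an intronic peak of this height without a peak at the gene's own end occurred in no other proteasome gene.
PSMA8 intron 4 (chr18:26168096-26168125): tattAATACAtaaaattttaaaaaggcttt

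The constitutive beta ring genes had tallest transcript-end peaks of 16 to 50 reads, with a median of 36.5 over the 6 genes with one. PSMB7, which encodes a beta subunit with trypsin-like activity, had 50 reads, PSMB5, the chymotrypsin-like subunit bound by bortezomib, 43, PSMB1 40, PSMB6 33, PSMB4 24 and PSMB2 16. The PSMB7 peak ended 5 bp past the canonical end, at a place where the unstranded list cannot tell PSMB7 from NEK6. The PSMB2 peak ended 4 bp before the canonical end and followed CATAAA. PSMB2 had 4 further peaks in its 3′ UTR exon, with 33, 24, 19 and 18 reads, all taller than the one at the annotated end. The tallest of these followed AATAAA by 27 bases. PSMB3 had no transcript-end peak. It had 2 intronic peaks, the taller one of 19 reads in intron 3, and 2 peaks 1527 and 3084 bp past its last end with 36 and 31 reads, both of which lay in PIP4K2B. The sites of PSMB7 and the pair of sites of PSMB2 are shown to set the distal site against the taller one in the same 3′ UTR.
PSMB7 transcript end (chr9:124353471-124353500): actcAATAAAaaacaaaaaccaaattgggc
PSMB2 transcript end, 16 reads (chr1:35599539-35599568): acctCATAAAgcctgtgttccaactaaatt
PSMB2 upstream in the 3′ UTR, 33 reads (chr1:35603139-35603168): tcagAATAAAggtgactatggatataattg

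The 6 ATPases of the 19S base spread from 14 to 69 reads, with a median of 32. PSMC5 had 69 reads, PSMC3 42, PSMC6 39, PSMC4 25, PSMC1 22 and PSMC2 14. The PSMC5 peak was wide (chr17:63831850-63832186) and ran 160 bp past the nearest annotated end into a region shared with SMARCD2, and the 100 bp before its 3′ edge held no hexamer. AATAAA began 29 bases before the annotated end that the peak covered. PSMC2 had its tallest peak of 41 reads in the 3′ UTR at chr7:103368047-103368222, while the peak at the canonical end had 14. In PSMC3 the taller of 2 transcript-end peaks, with 42 reads, lay in a coding exon, 6391 bp before the canonical end and 273 bp past where a shorter transcript is annotated to stop, and the peak at the canonical end had 31. For PSMC5 the hexamer of the annotated end is shown, and for PSMC2 and PSMC3 both sites.
PSMC5 annotated end (chr17:63831993-63832022): ctccAATAAAgctctgtgggccaagtcctc
PSMC2 transcript end, 14 reads (chr7:103369367-103369396): attaAATAAAtgtacacatttagaacacac
PSMC2 upstream in the 3′ UTR, 41 reads (chr7:103368182-103368211): atatAATAAAaggtgatttctaatgttatt
PSMC3 transcript end, 31 reads (chr11:47418770-47418799): gcgcAATAAAagatggtttagggtccctgc
PSMC3 early end, 42 reads (chr11:47425165-47425194): acaaGATAAAagagaacagtgagaaaatca

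PSMC1 shared its transcript-end sequence with a copy elsewhere. The 100 bases before the 3′ edge of its transcript-end peak, which had 22 reads, also occurred at chr3:68637146-68637245 beside the processed pseudogene PSMC1P1, with 100 of 100 bases matching. A peak of 40 reads was listed at that place. The authors' mapping allowed a read as many as 20 places, so reads from either place could be listed at the other, and both heights are uncertain. PSMA6 and PSME2 had near but not identical matches, and how far reads over them could be shared was not tested. The 100 bases at the tallest transcript-end peak of PSMA6, which had 29 reads, were matched at 97 positions in the pseudogene PSMA6P1, where a peak of 18 reads was listed. Those of PSME2, which had 32 reads, were matched at 96 positions in PSME2P1, which had no peak.

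The non-ATPase scaffold and ubiquitin receptor genes of the base had 43 reads for PSMD1, 41 for PSMD4 and 36 for PSMD2. PSMD1 had 5 transcript-end peaks, and the tallest ended 1 bp before the canonical end. PSMD2 had its tallest transcript-end peak, 36 reads, in a coding exon 2609 bp before the canonical end and 338 bp past where a shorter transcript is annotated to stop. The 100 bp before its 3′ edge held none of the 12 hexamers, and its last 30 bases consisted mostly of A and G. The sequence after it held up to 16 A in 25 bases. The label early end below gives its place only, and whether it is a cleaved end was not tested. The peak at the canonical end of PSMD2 had 27 reads and followed AATAAA by 22 bases. The PSMD1 and PSMD2 sites are shown as the tallest and lowest of the group, with the last bases of the PSMD2 peak, which hold no hexamer, in lower case throughout.
PSMD1 transcript end (chr2:231172782-231172811): ttttAATAAAtgtatctaatcctccccaca
PSMD2 early end, 36 reads (chr3:184306412-184306441): aaagagaaggaggaagacaaagacaagaag
PSMD2 transcript end, 27 reads (chr3:184309026-184309055): gttcAATAAAgacttttatccccaaggtct

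The 8 lid genes had the highest median of the groups of more than 2 genes with a transcript-end peak, 41.5 reads, with a range of 19 to 59. PSMD7 had 59 reads, PSMD11 57, PSMD8 56, PSMD3 43, PSMD12 40, PSMD6 25, PSMD14 24 and PSMD13 19. PSMD14, the lid's deubiquitinase, thus lay just under the median of all genes. The PSMD7 peak (chr16:74305520-74305837) lay in a coding exon, 451 bp before the canonical end. ATTAAA began 71 bases before its 3′ edge, and the peak at the canonical end had 18 reads. PSMD11 had 57 reads at an annotated end 2299 bp before the canonical end and 17 reads at the canonical end itself. PSMD13 had a single peak at chr11:252876-252987, which ended 3 bp past the canonical end.
PSMD7 transcript end (chr16:74305762-74305791): gtaaATTAAAatcttacaaactaaatcagt
PSMD13 transcript end (chr11:252957-252986): ctatAATAAAcccctctgctttgttcttct

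The 7 assembly chaperone genes had lower peaks, from 15 to 35 reads with a median of 28, yet 6 of 7 exceeded the median of all genes. PSMG3 had 35 reads, PSMD10 32, PSMG1 31, PSMD9 28, PSMG4 28, PSMG2 26 and PSMD5 15. PSMG1 to PSMG4 act on the 20S core, while PSMD5, PSMD9 and PSMD10 act on the 19S base. The PSMD5 peak, at chr9:120816040-120816161, ended 13 bp past the canonical end, and a peak of 19 reads lay beside it in the 3′ UTR exon. The sites of PSMG3 and PSMD5 are the tallest and lowest of this group.
PSMG3 transcript end (chr7:1567332-1567361): ttttATTAAAagcgaatgtgtatcccaaaa
PSMD5 transcript end (chr9:120816067-120816096): attgAATAAAatttgtaaatcattattttc

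Among the activators, which open the gate of the core without ATP, PSME3 had 52 reads, PSME4 37, PSME2 32 and PSME1 21. PSME1 and PSME2 encode the subunits of the interferon-inducible PA28 ring, and unlike PSMB8 and PSMB9 both had a transcript-end peak. The PSME3 peak (chr17:42843114-42843242) lay 518 bp before the canonical end. The PSME1 peak ran 94 bp past the nearest annotated end, in sequence shared with EMC9, and AATAAA began 28 bases before the annotated end. PSMF1, an inhibitor of the 20S core, had 42 reads at a site 6727 bp before its canonical end. This peak ended 460 bp past the nearest annotated end, and AATACA began 66 bases before its 3′ edge. All 4 transcript-end peaks of PSMF1 lay in the 3′ UTR of the canonical transcript.
PSME3 transcript end (chr17:42843205-42843234): aattATTAAAaatacaggtactttgacctc
PSME1 annotated end (chr14:24138935-24138964): gcacAATAAAtatagttataccactgccca
PSMF1 transcript end (chr20:1165449-1165478): tgtcAATACAgaattcatgttgccggtttc

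The symbol rule also took in PSMC3IP, a meiotic recombination factor, and PSME3IP1, which binds PSME3, and neither is a proteasome subunit. PSMC3IP had 67 reads, but this peak lay 584 bp past its end in MLX, so its gene of origin cannot be told apart. PSME3IP1 had 45 reads and 7 transcript-end peaks, the most of all 50 genes. Each of the 11 shares, counts and medians recomputed without both stayed within 1.5 times (counts) or the 95% interval (shares and medians) of its value.

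Most of the tallest peaks had the hexamer AATAAA before them. The search for signals covered 12 hexamers on the gene's strand, within 100 bp up to the 3′ edge of the peak, where the reads of this kit start. The commonest signal in human genes is AATAAA. Its variants at the first base were CATAAA together with GATAAA as well as TATAAA. Those at the second base were ATTAAA together with AGTAAA as well as ACTAAA. The third base was varied in AAGAAA. The base after it was varied in AATGAA. The fifth was varied in AATACA together with AATATA as well as AATAGA. The signal AATAAA was found at 31 of the 45 tallest transcript-end peaks (68.9%, 95% interval 54.3 to 80.5), against 56.2% over all protein-coding genes. ATTAAA without AATAAA was found at 4 (8.89%, against 13.0%) and another hexamer alone at 3 (6.67%, against 15.8%). The median distance from the start of AATAAA to the 3′ edge was 26 bases in proteasome genes and 27 in all genes. It began 15 to 35 bases before the edge at 20 of these 31 peaks (64.5%), against 72.3% over all genes. Over all 95 transcript-end peaks, 80% had a hexamer (95% interval 70.9 to 86.8), close to the 79.2% of all genes.

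**Figure D2:**
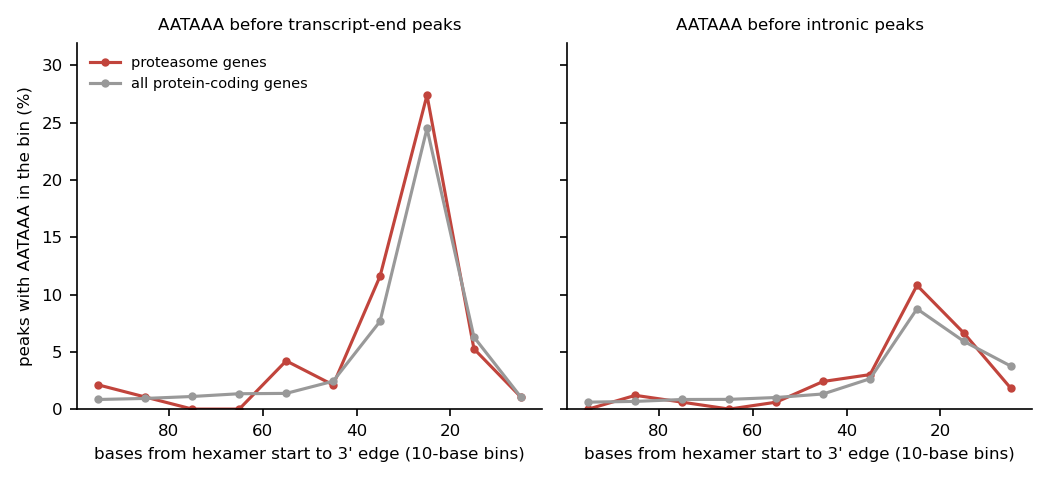
Share of peaks (%) with AATAAA in each 10-base bin before the 3′ edge, for transcript-end peaks (left, 95 of proteasome genes) and intronic peaks (right, 166 of proteasome genes), with all protein-coding genes in grey. Both lines on the left peak in the bin that starts 20 bases before the edge, at 27.4% in proteasome genes, and on the right the same bin reaches 10.8%.

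No hexamer was found at 7 of the 45 tallest peaks (15.6%), near the share over all genes (1927 of 12832). They belonged to PSMC5, PSMD4, PSMB6, PSME1, PSMB5, PSMD2 and PSME3IP1. In PSMC5, PSMD4, PSMB6 and PSME1 the 3′ edge lay 92 to 160 bp past the nearest annotated end, and AATAAA began 27 to 38 bases before that end. In PSMB5, PSMD2 and PSME3IP1 no hexamer was found in the 100 bp before the nearest annotated end either. The PSMD4 and PSMB6 sites are printed as further examples of a signal that the edge of a wide peak placed out of the window.
PSMD4 annotated end (chr1:151267437-151267466): cctaAATAAAgcttggcaactttttttcct
PSMB6 annotated end (chr17:4798471-4798500): atttAATAAAgtttgtcacagagaatcttt

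The tallest transcript-end peak was often not the one at the canonical end. The tallest transcript-end peak ended within 200 bp of the canonical transcript's end in 25 of 45 genes (55.6%, against 59.3% of all genes). It ended more than 200 bp before that end in 18 (40%, against 31.3%) and more than 200 bp after it in 2 (against 1205 of 12832). Within 20 bp of some annotated end lay 31 (68.9%, against 59.9%). In PSMA2, PSMC6, PSMD9, PSMD11 and PSMD12 a peak upstream in the 3′ UTR was taller than the one nearest the canonical end, with 35 against 25 reads in PSMA2, 39 against 25 in PSMC6 and 28 against 18 in PSMD9. A single transcript-end peak was found in 18 genes (40%, against 44.8%), 2 peaks in 13 (28.9%, against 26.5%) and 3 or more in 14 (31.1%, against 28.7%). The mean was 2.11 in both sets. Of the 95 transcript-end peaks, 61 had their summit in the 3′ UTR of the canonical transcript, 16 in its coding exons, 12 in its introns and 6 outside it. These counts describe the peaks of the proteasome genes only and were not set beside those of all genes. Another gene lay at the tallest transcript-end peak in 17 genes (37.8%, against 36.8%).

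By position, the peaks of the proteasome genes lay more often at transcript ends and less often in introns than those of all protein-coding genes. Transcript ends held 95 of 313 peaks (30.4%, 95% interval 25.5 to 35.7), against 20.2% over all genes. Introns held 166 (53.0%, 47.5 to 58.5), against 64.0%. Exons away from any transcript end held 27 (8.63%, 6.00 to 12.3), against 10.3%, and 25 (7.99%, 5.47 to 11.5) lay 600 to 4000 bp past the last end, against 5.51%. Peaks of 1 gene are not independent, and the intervals cover counting error only. Of the 27 exon peaks, 12 (44.4%, against 29.8% over all genes) had their summit in a coding exon of the canonical transcript, 7 in its 3′ UTR and 8 in an exon of another transcript only. Transcript-end peaks had a median of 26 reads (quartiles 18 and 35.5), against 19 over all genes, and intronic peaks a median of 15 (quartiles 11 and 19), against 12.

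**Figure D3:**
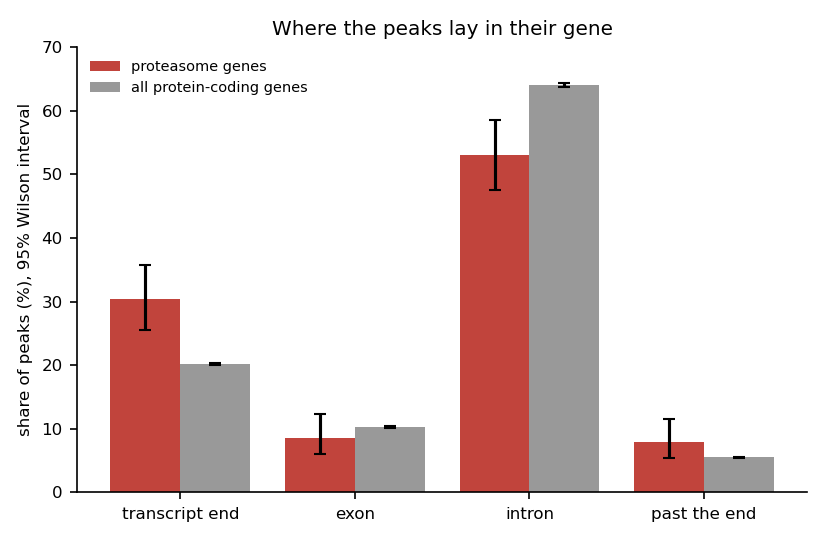
Share of peaks (%) at transcript ends, in exons, in introns and past the last end, for the 313 peaks of the proteasome genes (red) and all peaks of protein-coding genes (grey), with 95% Wilson intervals. The red bars stand at 30.4% for transcript ends and 53.0% for introns, and the grey ones at 20.2% and 64.0%.

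An intronic peak was found in 28 of the 45 genes with a transcript-end peak (62.2%, 95% interval 47.6 to 74.9), against 80.0% of such genes with introns overall. Proteasome genes were also shorter, with a median length of 16.6 kb over the 50 genes against 27.5 kb over all protein-coding genes. The 17 genes without an intronic peak were at most 16.0 kb long. They were PSMA4, PSMA7, PSMB4, PSMB6, PSMB10, PSMC3, PSMC4, PSMC5, PSMD2, PSMD7, PSMD10, PSMD13, PSME1, PSME2, PSMG1, PSMG3 and PSMC3IP. The number of intronic peaks and gene length had a Spearman's rho of 0.90 over the 45 genes and 0.81 over 12495 genes, a description of genes of 1 pooled list.

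All detected genes were then divided at the quartiles of their length. The classes were set by gene length and not by intron length, from which the windows at annotated ends were left out. Of the 19 proteasome genes up to 15.2 kb long, 3 had an intronic peak (15.8%, against 41.0% of other genes), with medians of 7.34 and 8.40 kb. From 15.2 to 36.7 kb it was 13 of 14 (92.9%, against 85.9%), from 36.7 to 87.2 kb 8 of 8 (against 95.2%) and above that 4 of 4 (against 98.0%). Per kb of intron, the proteasome genes had 0.152 intronic peaks (95% Poisson interval 0.129 to 0.177), against 0.0883 over all genes. In the 4 length classes, from shortest to longest, the density was 0.104 (0.0382 to 0.226), 0.169 (0.120 to 0.232), 0.148 (0.111 to 0.193) and 0.152 (0.117 to 0.194), against 0.152, 0.139, 0.119 and 0.0759 in other genes. In the longest class the 4 proteasome genes had a median length of 112 kb and the others 156 kb, so this class was not matched within itself.

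**Figure D4:**
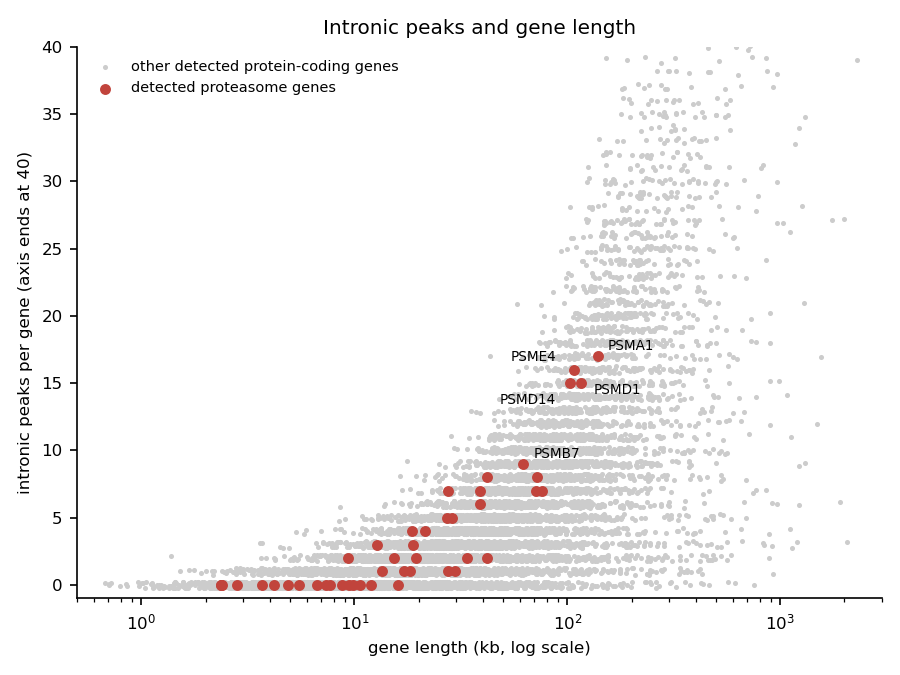
Number of intronic peaks (vertical axis, cut at 40) against gene length in kb (log scale) for the 45 detected proteasome genes (red) and other detected protein-coding genes (grey, jittered). The red points stay at 0 in all but 3 genes up to 15.2 kb and reach 15 to 17 in PSMA1, PSME4, PSMD1 and PSMD14.

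PSMA1 had 17 intronic peaks, PSME4 16, PSMD1 15, PSMD14 15 and PSMB7 9, and together they held 72 of the 166 (43.4%) in 41.5% of the intronic length of all 50 genes. PSMA1 is a special case, because its annotated body of 139 kb comes from transcripts that start far upstream, whereas its canonical transcript spans 15.5 kb. Of its 17 intronic peaks, 16 lay outside the canonical transcript. The same held for 6 of 7 in PSMG2 and 8 of 8 in PSMG4, and the tallest of PSMG2 lay in CEP76. In PSME4, the large single-chain activator, 4 peaks of 19 to 29 reads lay close together near the start of the gene, the tallest at chr2:53967133-53967261 in intron 1. In PSMD1, by contrast, intronic peaks had 8 to 15 reads, 11 of the 15 lay in intron 16, and none lay more than 74999 bp from the start of the 116 kb gene.

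**Figure D5:**
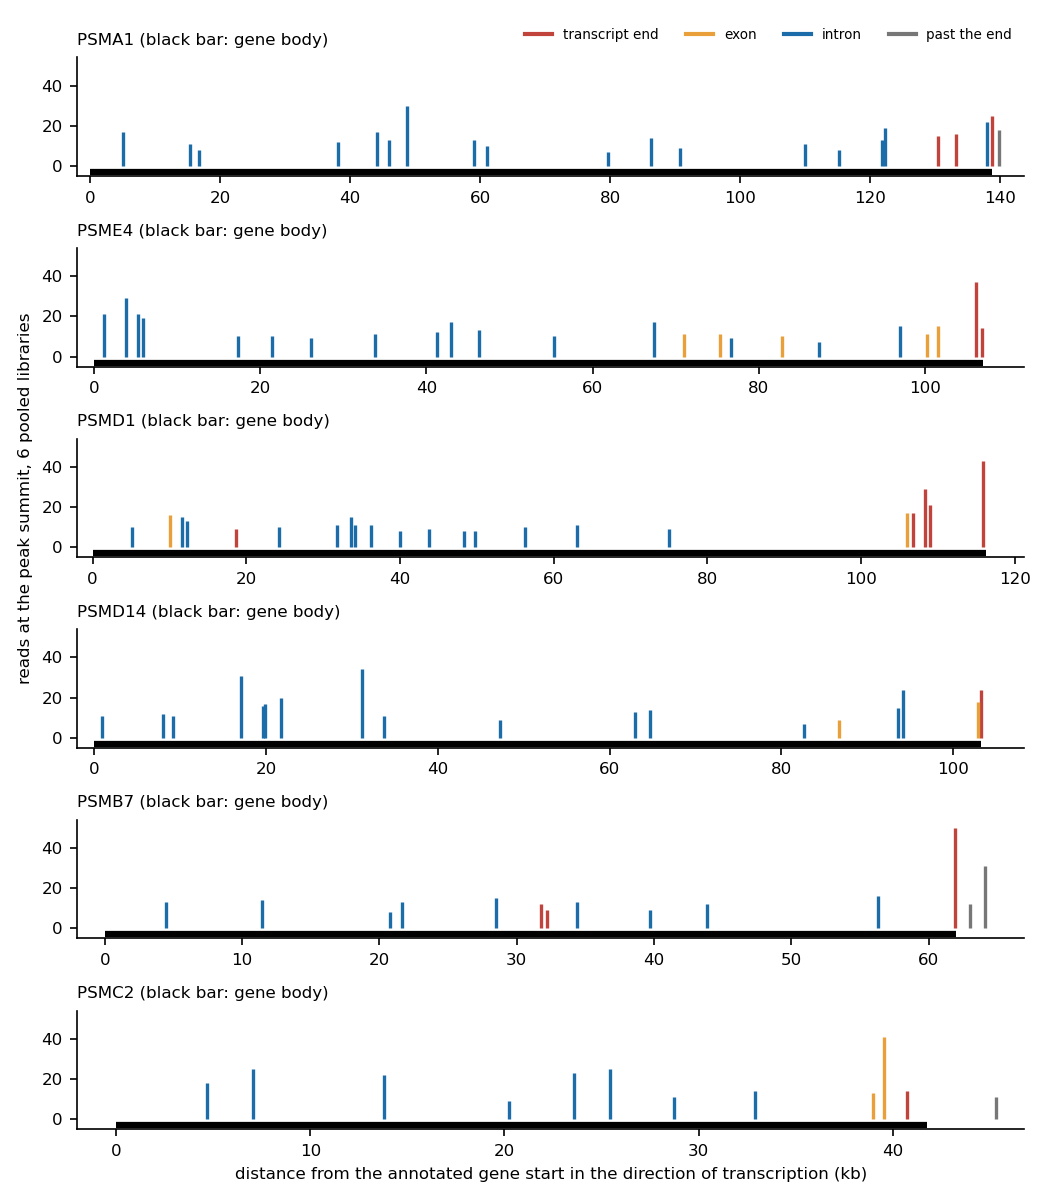
Peaks along PSMA1, PSME4, PSMD1, PSMD14 and PSMB7, the 5 proteasome genes with the most intronic peaks, and PSMC2, which had 8 as did PSMG4 (not drawn), with distance from the annotated gene start (kb) across and reads at the summit upward, coloured by class. The tallest peak lies at a transcript end in PSME4, PSMD1 and PSMB7, with 37, 43 and 50 reads, in an intron in PSMA1 and PSMD14, with 30 and 34 reads, and in the 3′ UTR in PSMC2, with 41 reads.

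A taller intronic than transcript-end peak was found in 5 of 45 proteasome genes (11.1%, 95% interval 4.84 to 23.5), against 27.8% of all detected genes with introns. They were PSMA1 with 30 against 25 reads, PSMA3 with 36 against 34, PSMC1 with 39 against 22, PSMC2 with 25 against 14 and PSMD14 with 34 against 24. The PSMA1 peak lay outside the canonical transcript. The PSMA3 peak lay in intron 7 where ARMH4 and PSMA3-AS1 also lie, as they do at its transcript-end peak. The PSMC2 peak lay in intron 2 where SLC26A5 also lies. The summit of the PSMC1 peak (chr14:90260020-90260166) lay in intron 2, but its 3′ edge and the printed site lay in the exon that follows. The 3′ edge lay in an exon at 7 of the 166 intronic peaks (4.22%, against 2.38% over all genes). The PSMC1 peak and the PSMD14 peak (chr2:161339501-161339623, intron 3) had no other gene at the summit. The 100 bases before the 3′ edge of the PSMD14 peak occurred a second time at chr17:76679577-76679676 with 100 of 100 bases matching, and the list held no peak there. By length, 0 of the 19 shortest proteasome genes had a taller intronic peak (10.5% of other genes), and 2 of the 4 longest did (1372 of 3120 other genes).
PSMA1 intronic (chr11:14594750-14594779): gtatAATAAAaaaaagaaacgttatgcatt
PSMA3 intron 7 (chr14:58266284-58266313): aaaaAATAAAagataatctagtttaatata
PSMC1 exon after intron 2 (chr14:90260120-90260149): gaaaAAGAAAtatgaacctcctgtaccaac
PSMC2 intron 2 (chr7:103354078-103354107): aaaaAATAAAataaaaagaaacaattagaa
PSMD14 intron 3 (chr2:161339555-161339584): gctgAATACAgagatccaagccatgaggag
With the hexamer in capitals, the sites show AATAAA in PSMA1, PSMA3 and PSMC2 and less common hexamers in PSMC1 and PSMD14. AATAAA began 21 bases before the 3′ edge in PSMA1, 48 in PSMA3 and only 6 in PSMC2. The sequence after the PSMC2 peak held up to 17 A in 25 bases. The hexamers of PSMC1 and PSMD14 began 42 and 64 bases before the edge. Whether these hexamers act as signals was not tested. PSME3 had the remaining intronic peak among the tallest of 5 different genes, 32 reads in intron 4 with no hexamer, below the 52 reads of its transcript end.

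Over all intronic peaks of the proteasome genes, 108 of 166 had a hexamer (65.1%, 95% interval 57.5 to 71.9), against 57.0% in all genes, and AATAAA itself was found at 45 (27.1%, 20.9 to 34.3), against 26.3%. Because the kit primes on poly(A), genomic A-rich sequence after a peak can give a peak without a cleaved end. At least 22 A in 25 bases within 50 bp downstream were found at 2 intronic peaks (1.20%, 0.331 to 4.29), against 5.52% in all genes, and both lay in PSMA1 outside its canonical transcript. At least 18 A were found at 33 (19.9%, 14.5 to 26.6), against 26.9%. A hexamer together with fewer than 18 A was found at 99 (59.6%), against 47.7%, and 34 (20.5%) had neither a hexamer nor 18 A, against 25.4%. In the canonical transcript the first intron held 33 of 126 numbered intronic peaks (26.2%, 19.3 to 34.5), while first introns made up 17.3% of those genes' intronic sequence, each gene weighted by its peaks. Over all genes the values were 31.6% and 26.3%. The first 4 introns held 77 of the 126 (61.1%), against 63.8%.

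Peaks past the last annotated end were found in 18 of the 45 genes (40%, 95% interval 27.0 to 54.5), against 31.6% of all detected genes. Counting also the 2 peaks of PSMB3 and the 1 of PSMB8, which had no transcript-end peak, there were 25 such peaks, of which 16 (64%, against 70.8% over all genes) lay where the annotation holds another gene. The tallest were 60 reads in PSMB4, 2360 bp past its end in POGZ, 48 in PSMA7, 1396 bp past its end in LSM14B, and 46 in PSMC4, 1019 bp past its end. The PSMC4 peak (chr19:39982686-39982990) was the tallest with no other gene at the summit. It was taller than the peak of 25 reads at the annotated end of PSMC4, and ATTAAA began 27 bases before its 3′ edge.
PSMC4 past the annotated end (chr19:39982959-39982988): taaaATTAAAtagtgaatttagcaatgtgg

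The other genes of the pathway that were listed beside the family also had peaks at their transcript ends. All 21 had a transcript-end peak (against 64.1% of protein-coding genes), with a median of 36 reads and a range of 10 to 70. NFE2L1, the transcription factor that induces proteasome genes, had 70 reads. The proteasome subunit genes with other symbols had 39 reads for SEM1 and 37 for ADRM1, and POMP, a chaperone of the core, had 39. DDI2, the protease that activates NFE2L1, had the lowest with 10. A taller intronic than transcript-end peak was found in 5 of the 20 with introns (27.8% over all such genes), namely AKIRIN2 with 49 against 34 reads, UBE3C with 45 against 36, UBQLN4 with 20 against 16, PITHD1 with 16 against 14 and DDI2 with 11 against 10.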

How the data were processed

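Poly(A) 3′-seq (QuantSeq REV) was performed on 6 IMR-32 libraries. Per the study's methods and the submitters' processing notes, the authors mapped trimmed reads to GRCh38 with STAR 2.5.1b, merged all samples and called peaks once with MACS2 2.1.1, extending reads to 100 bp and using no control library. The deposited columns are a fold, the ratio of pileup to local background (each plus 1), a −log10 p-value, a −log10 q-value and the summit offset. The study then removed peaks that lacked a hexamer and lay before a genomic A stretch. The list used here still held such peaks, among them chr11:14584522-14584626 in PSMA1. The depth of a library is unknown. Reads at the summit were solved from the deposited fold and −log10 p-value as a Poisson tail (largest misfit 0.000172) and checked on simulated peaks. Peaks needed −log10 q of at least 5. Coordinates are GRCh38, 1-based. Annotation was Gencode release 44 (the study used an earlier one), and canonical means the Ensembl canonical transcript. A summit within 200 bp before to 600 bp after an annotated end was called a transcript end, otherwise exon, intron, or past the end up to 4000 bp. Sequence came from GRCh38, other places of the same sequence were found with minimap2 2.31, and tables were made with Python 3.11.15, pandas 2.3.3 and SciPy 1.17.1. Intervals are 95% Wilson, exact Poisson or, for a median, binomial. No test was run, since the list pools all groups. Members and gene lists were chosen with earlier results of these data known. All members are named. Full values were given for the tallest and lowest of each role, genes without a transcript-end peak or with a taller intronic one, the 5 tallest and 5 richest in intronic peaks, and the 3 tallest past the end. Further sites were named after their values were seen. The alternatives were other cutoffs, windows, hexamers and A stretches, canonical transcripts only and peaks free of other genes.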

Additional observations from a re-analysis of the deposited data

How the results depend on the processing

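Over all alternatives, 56 values stayed within 1.5 times (counts) or their 95% interval (shares, densities and medians) and 31 did not. The 45 genes with a transcript-end peak became 32 (64%, against 29.5% of all genes) with −log10 q of at least 20. They became 38 (76%, against 53.6%) with canonical transcripts only and 31 (62%, against 45.3%) without peaks at other genes. Each lay below the 95% interval of the share, 78.6 to 95.7%. The cause was not tested. With −log10 q of at least 20, introns held 17.3% (28.0% over all genes) and transcript ends 67.3% of peaks (50.2%). A hexamer was found at 8 of the 9 intronic peaks (88.9%, against 72.2% over all genes). An A stretch was found at 0 of 9 (against 1.37%). The first intron held 1 of 8 numbered intronic peaks (12.5%, against 33.2%). The density was 0.00410 per kb from 3 peaks, against 0.00450 over all genes, so the higher density was not seen at this cutoff. An intronic peak was found in 2 of 32 genes (6.25%, against 21.2%). A taller intronic one was found in 1 (3.12%, against 7.92%) and a peak past the end in 2 (6.25%, against 4.73%). With each gene weighted equally the intronic share was 34.2% (47.0% over all genes). A 100 bp window gave a transcript-end share of 23.3% (14.7% over all genes). Canonical transcripts only gave a share of 15.5% (9.32% over all genes) and a median of 27 reads (22 over all genes). A taller intronic peak was then found in 8 genes (21.1%, against 34.2%). Without peaks at other genes, 2 genes had a taller intronic peak (6.45%, against 28.7%) and 6 a peak past the end (19.4%, against 13.8%). The share of intronic peaks with a hexamer was then 73.2% (57.2% over all genes), and 0.128 lay per kb (0.0777 over all genes). Past the end up to 1000 bp, 2 genes remained (4.44%, against 6.77% of all genes). The share was then below that of all genes. Hexamer shares at ends and in introns were 54.7% and 27.1% for AATAAA alone, 64.2% and 38.0% with ATTAAA, and 41.1% and 43.4% before the summit. The same shares over all genes were 47.5% and 26.3%, 60.1% and 33.6%, and 41.1% and 35.1%. Searching the annotated end as well, an alternative chosen after seeing the data, gave 87.4% at ends (89.2% over all genes). Intronic A stretches reached 19.9% with 18 A (26.9% over all genes) and 9.04% on both sides (17.1%). Peaks per kb were 0.207 with no cutoff, 0.0979 with a hexamer and 0.121 without 18 A. Over all genes they were 0.126, 0.0509 and 0.0644. No paired analysis was possible because peaks were called on merged reads, and for the same reason no replicate could be left out.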

Other observations

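The annotation held 44 pseudogenes of 17 proteasome genes, mostly processed copies, which are reverse-transcribed from mRNA and often end in genomic A. A peak with −log10 q of at least 5 lay in or beside 5 of them. PSMC1P1 had 2 such peaks, the taller of 40 reads, more than the 22 reads at the end of PSMC1 itself. PSMA6P1 had 18 reads, PSMC1P9 had 12 and lies in PLCZ1, PSMD4P1 had 11 and lies in CLDN14, and PSMC1P10 had 7. The 100 bases at the parent's tallest transcript-end peak were matched at 95 or more positions by 5 of the 42 copies that could be compared, among them PSME2P1, PSME2P2 and PSME2P6, for which no peak was listed. Which of these places the reads came from was not tested.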
